A study of Canis lupus familiaris with 17 samples.

Results

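The genes described here are the chains of 2 Fc receptors and a kinase that works downstream of them: FCER1A, MS4A2, FCER1G, FCGR1A and SYK. They were taken by symbol, 5 of the 20257 genes counted in each of 17 dogs, and carry the identifiers ENSCAFG00000011755, ENSCAFG00000010352, ENSCAFG00000012878, ENSCAFG00000011504 and ENSCAFG00000002171. The choice names symbols and sets no threshold on a measured value. FCGR1A and MS4A2 belong to families of related genes, and whether reads of other family members were counted with them was not tested.

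FCER1A encodes the alpha chain that holds IgE in the high-affinity IgE receptor. MS4A2 encodes the beta chain, which amplifies the signal, and FCER1G encodes the common gamma chain, which carries the signalling motif known as an ITAM. The gamma chain also serves the high-affinity IgG receptor CD64, encoded by FCGR1A, and in natural killer (NK) cells it serves CD16. When antibody and antigen cross-link a receptor, Src family kinases phosphorylate the ITAM and SYK docks on it and starts the cascade. In other mammals the form with the beta chain belongs to basophils and mast cells, whereas dendritic cells can carry the alpha and gamma chains without it.

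Peripheral blood leukocytes isolated on a density gradient were profiled by droplet-based single-cell RNA sequencing of transcript 3' ends in dogs. The groups were 7 clinically healthy, middle-aged, client-owned dogs (H1 to H7) and 10 client-owned dogs with a primary osteosarcoma and no earlier treatment (OS1 to OS10). All were recorded as wild type, each library came from a separate dog, and the dogs were of varying breeds and both sexes. The study attempted to control for age and names a remaining age difference between the groups as a limit. Values are counts of unique molecular identifiers (UMIs), that is, of tagged transcripts.

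Libraries held 1332 to 7748 barcodes and 7740230 to 56510134 UMIs, with OS3 the smallest, and 76875 cells were classified after filtering. Among the 136 pairs of dogs, 0 to 22 barcodes were shared (median 8, at most 0.375% of the smaller library). Clusters were named from marker lists with the 5 genes left out, so each class name here means cells that resemble the type on those lists. Some clusters had more markers of another list than of their own among their 10 leading genes. This was so for the main cluster of the CD8 memory list (1999 of 2215 cells, 6 effector-list markers against 3), so these are called memory-list CD8 T cells and not read as memory cells. It was so as well for a CD4+ and a CD4- monocyte cluster, each with more markers of the other's list, for an interferon-gene-led cluster of 759 neutrophils, for 107 naive CD8 T cells and for the 71 unclassified dendritic cells. The CD4+ and CD4- monocyte clusters were told apart by CD4 UMIs, at 0.864 to 1.926 and 0.014 to 0.29 for every 10000 UMIs. A level is given as CPM, the UMIs of a gene in each 1000000 UMIs of a class in a dog with at least 10 such cells, as mean ± SD over dogs, and levels of different genes are not compared because CPM carry no transcript length. Classes differed in depth. The median was 917 UMIs per cell in the class named by the basophil list and 1720 per neutrophil. It was 12750 per CD4- monocyte and 15793 per conventional dendritic cell 2 (cDC2). Free RNA was gauged in naive CD4 T cells, where the share of cells with a UMI was 0.84% for FCER1G, 1.49% for SYK, 0.50% for FCGR1A, 0.28% for MS4A2 and 0.13% for FCER1A at a median of 5585 UMIs.

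The basophil label was not kept. The 293 cells with the highest score for the basophil list had a median of 917 UMIs and held 236 UMIs of IL5RA and 148 of ADGRE1, but 1 UMI of CPA3, the carboxypeptidase of mast cells and basophils, 1 of GATA2, a transcription factor of both, and 1 of IL3RA, the interleukin 3 receptor alpha chain. They are called basophil-list cells below. A separate cluster of 52 cells, led by MMP1, MMP9, HPGD and CPA3, held 577 UMIs of CPA3, 35 of GATA2 and 138 of IL3RA at a median of 3033.5 UMIs per cell. It matched no list used for naming and is called the CPA3-high cluster. HDC, the histamine-forming enzyme, had 0 UMIs in both. Of other receptor genes checked, IL1RL1 and CCR3 went the other way from CPA3. They had 0 and 1 UMIs in the CPA3-high cluster and 15 and 12 in basophil-list cells. CSF2RB went with CPA3, at a pooled 1246 CPM in the CPA3-high cluster against 445 in basophil-list cells. KIT, PTGDR2 and ENPP3, also checked, had 0, 1 and 2 UMIs in the CPA3-high cluster and 0, 0 and 1 in basophil-list cells. KIT and ENPP3 were higher in conventional dendritic cells 2, at a pooled 34.4 and 56.8 CPM against 0 and 10.6 in the CPA3-high cluster. A check list of basophil and mast cell genes, with CPA3, GATA2 and HDC on it, was kept out of naming. Its mean log2 ratio to all other cells was 1.873 in the CPA3-high cluster, the highest of all clusters, 1.831 in the CD34+ unclassified cells and 0.734 in basophil-list cells. Over a check list of eosinophil genes it was -0.848 in the CPA3-high cluster and 1.793 in basophil-list cells. IL5RA is on both the basophil list used for naming and this eosinophil check list. Its count in basophil-list cells and part of their score of 1.793 thus followed from the naming. The CPA3-high cluster was itself picked for CPA3 among its leading genes, so its CPA3 count and part of its score followed from that choice. IL3RA was picked after the clusters had been seen, and the name of the cluster stays descriptive.

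**Figure D1:**
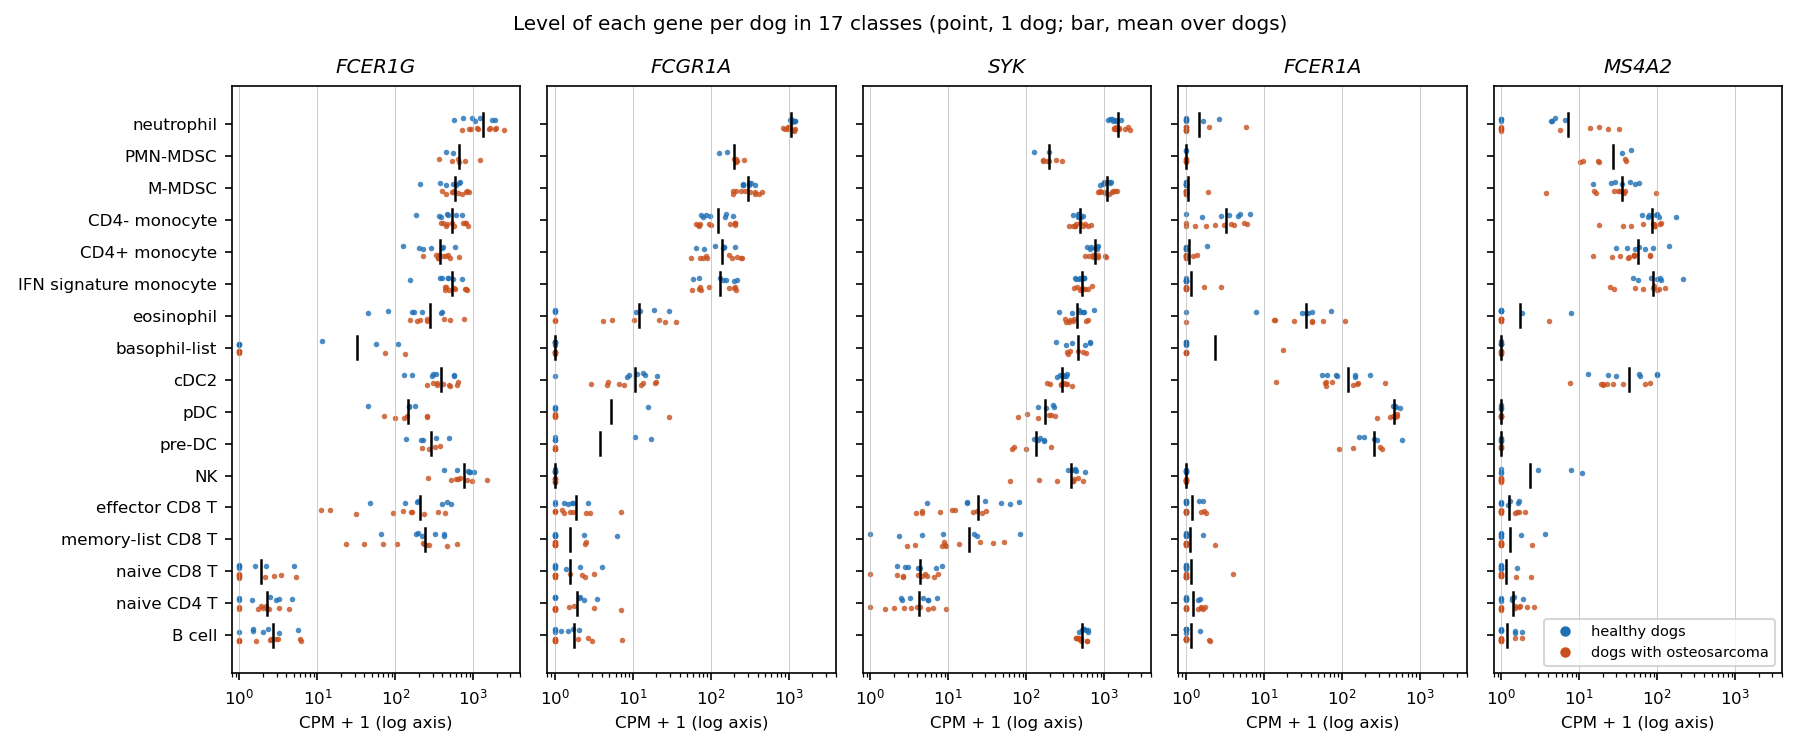
Level of each gene in 17 classes, as CPM + 1 on a log axis, with 1 point for each dog with at least 10 cells (blue, healthy; orange, osteosarcoma) and a bar at the mean over dogs. FCER1A stood highest in plasmacytoid dendritic cells (pDC) at a mean of 464 CPM, MS4A2 in CD4- and interferon (IFN) signature monocytes at 83.9 and 86.9 CPM, and the other genes in neutrophils. The points of both groups overlapped except for FCGR1A in PMN-MDSC. Few healthy dogs had 10 cells of that class, and the share of all genes that did not overlap there was not counted.

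FCER1A, the chain that binds IgE, was highest, among the named classes, in 3 dendritic classes. Its level was 464 ± 75.4 CPM in pDC (n = 10 dogs), 262 ± 146 in dendritic cell precursors (pre-DC, n = 9), 118 ± 84.0 in cDC2 (n = 16) and 34.1 ± 28.7 in eosinophils (n = 15). CD4- monocytes had 2.26 ± 1.85 CPM (n = 17), and among 368 NK cells there was no FCER1A UMI, which allows a share of cells with a UMI of up to 0.815%. The 85 conventional dendritic cells 1 (cDC1) had 0 UMIs too, which allows up to 3.53%. Such limits cover counting error only and bound detection at this depth, not expression. The CPA3-high cluster had a pooled 520 CPM.

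The values per dog were tightest in pDC. They ran from 282 CPM in OS7 through a median of 482 to 558 in H6, with 9 of the 10 dogs at or above 414. In cDC2 they ran from 13.2 in OS3 through a median of 84.3 to 356 in OS5, and OS5 stood above the next dog, H4, at 229. In pre-DC the dogs lay between 92.5 in OS7 and 587 in H3, with a median of 261. Healthy dogs and dogs with osteosarcoma were interleaved in all 3 classes.

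Neighbours in the order of levels were compared dog by dog with an exact permutation test (sign flips, two-sided), adjusted by Benjamini-Hochberg over 115 neighbour pairs of the 5 genes. For FCER1A, cDC2 lay above eosinophils in 14 of 15 dogs (adjusted exact p = 0.00546) and eosinophils above CD4- monocytes in 13 of 15 (adjusted exact p = 0.0168). The steps from pDC to pre-DC (adjusted exact p = 0.0998) and from pre-DC to cDC2 (adjusted exact p = 0.0642) did not pass 0.05, so the order of the 3 dendritic classes was not fixed by this test. With 8 shared dogs the first of these steps could not have passed after adjustment (smallest exact p 0.00781). The same held for 34 of the 115 pairs, 8 of the 23 of FCER1A among them.

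A fit across all genes separated pDC from cDC2 and from pre-DC. Class pairs were tested by edgeR (quasi-likelihood) on the sums of each dog, with the dog as a block. A gene was called where its Benjamini-Hochberg adjusted p was below 0.01 and its log2 fold change exceeded 0.58 in either direction. Between pDC and cDC2 in 10 dogs, 34.2% of all genes tested were called, and 4 of the 5 genes were among them. FCER1A was higher in pDC by 1.61 ± 0.144 on the log2 scale (SE; edgeR adjusted p = 1.36e-14; 464 against 148 CPM), in 10 of 10 dogs. FCER1G and SYK went the other way, at -1.47 ± 0.103 (146 against 361 CPM) and -0.88 ± 0.106 (172 against 284 CPM), each lower in 10 of 10 dogs. MS4A2 had 0 UMIs in pDC and 235 in cDC2, which makes it at least 36.3-fold lower in pDC against a floor of 3 counts over the group. The pDC thus held UMIs of the alpha chain and none of the beta chain.

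Pre-DC had less FCER1A and more FCER1G than pDC. Against pDC in 8 dogs, where 24.7% of all genes tested were called, 2 of the 4 genes tested were called. FCER1A was lower in pre-DC by a log2 fold change of -0.77 ± 0.124 (edgeR adjusted p = 1.88e-08), in 7 of 8 dogs, and FCER1G was higher by 0.97 ± 0.138 (edgeR adjusted p = 2.35e-10), in 8 of 8. SYK differed by -0.44 ± 0.149 (edgeR adjusted p = 0.012) and was not called. With doublets kept, FCER1A came to -0.57, short of the fold threshold.

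MS4A2, the beta chain, had another distribution. Among named classes with levels per dog it was highest in monocytes, with cDC2 close by: 86.9 ± 45.7 CPM in IFN signature monocytes (n = 16), 83.9 ± 34.5 in CD4- monocytes (n = 17), 55.3 ± 29.8 in CD4+ monocytes, 42.0 ± 30.7 in cDC2 and 34.3 ± 20.9 in monocytic myeloid-derived suppressor cells (M-MDSC). CD4+ monocytes were above cDC2 in 8 of 16 dogs (adjusted exact p = 0.266). The 45 CD34+ unclassified cells had a pooled 65.0 CPM. Neutrophils had 6.10 ± 9.23 CPM. A UMI was found in 35.9% of CD4- monocytes, and in 9.31% after each cell was thinned to 1500 UMIs, against 0.28% of naive CD4 T cells unthinned.

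Among CD4- monocytes MS4A2 ran from 17.2 CPM in OS5 through a median of 89.2 to 171 in H5. H5 was the highest dog in CD4+ monocytes, IFN signature monocytes and cDC2 too, at 140, 215 and 99.6 CPM, and OS5 the lowest in both CD4- and CD4+ monocytes. CD4- monocytes were above CD4+ monocytes in 16 of 17 dogs (adjusted exact p = 0.00176), and this was the only step in the order of MS4A2 that passed 0.05, where 8 of its 23 pairs had too few dogs to pass.

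All 3 chains of the IgE receptor met in the same cell in few places. Of the 76875 cells, 1091 had a FCER1A UMI, 4857 had a MS4A2 UMI, and 207 had UMIs of FCER1A, MS4A2 and FCER1G together. The CPA3-high cluster gave 28 such cells of its 52, cDC2 gave 96 of 567, and CD4- monocytes 58 of 7843. In cDC2 these cells came from 15 dogs, and in the CPA3-high cluster from 5. The larger depth of cDC2 makes the shares of the 2 classes not directly comparable. Whether the chains were found together more often than their separate shares give was not tested.

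**Figure D2:**
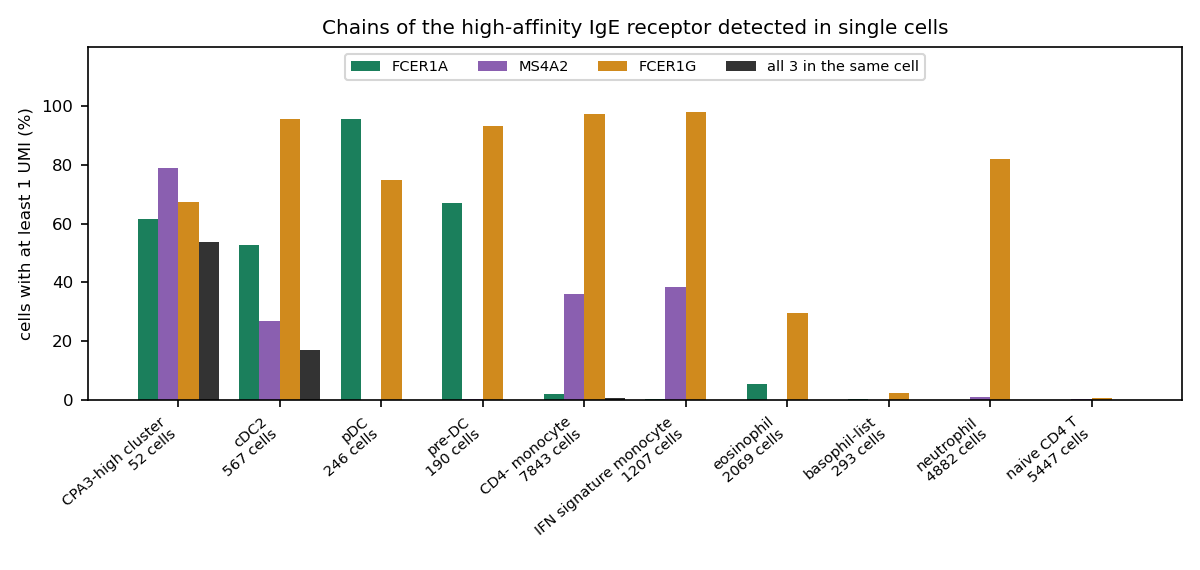
Percentage of cells with at least 1 UMI of FCER1A (green), MS4A2 (violet), FCER1G (ochre) and of all 3 in the same cell (black), pooled over dogs, in 10 classes with their cell numbers under the axis. The bars for all 3 chains stand out in the CPA3-high cluster (28 of 52 cells) and in cDC2 (96 of 567), while pDC had high bars for FCER1A and FCER1G and 0 cells of 246 with MS4A2.

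The CPA3-high cluster came from 8 dogs: 20 cells of H5, 15 of OS4, 8 of OS2, 4 of H4, 2 of H7 and 1 each of H2, OS1 and OS9. Only H5 and OS4 reached 10 cells. MS4A2 was at 1157 CPM in H5 and 893 in OS4, FCER1A at 561 and 410, FCER1G at 596 and 556, and SYK at 631 and 322. In both dogs the cluster's MS4A2 level was above the highest dog of the monocyte classes, H5 at 215 CPM in IFN signature monocytes. No test was made on 2 dogs.

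Basophil-list cells held few or no UMIs of these chains, at a median of 917 UMIs per cell. MS4A2 had 0 UMIs in 293 cells, which allows a share of cells with a UMI of up to 1.02%, FCER1A had 1 UMI and FCER1G 7. Against a floor of 3 counts over the pooled cells, MS4A2 was at least 131-fold higher in the CPA3-high cluster, and FCER1A was 197-fold higher there (95% counting interval 34.6 to 7867). SYK was readily seen in basophil-list cells at 454 ± 141 CPM (n = 12). Set against eosinophils in 12 dogs, where 15% of all genes tested were called, 2 of the 4 genes tested were called: FCER1G at -4.19 ± 0.436 (edgeR adjusted p = 5.37e-20; 31.6 against 297 CPM, lower in 11 of 12 dogs) and FCER1A at a pooled ratio of 12.0 in favour of eosinophils (95% counting interval 2.11 to 476). The FCER1A call was lost under DESeq2 and within each group of dogs alone. SYK had a fitted difference of -0.47 ± 0.214 (edgeR adjusted p = 0.0978) and was not called. By CPM it was 454 against 445, higher in basophil-list cells in 7 of 12 dogs. The median of all genes in this pair was -0.57.

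FCGR1A, the high-affinity IgG receptor, had its highest CPM in neutrophils. Its level there was 1075 ± 108 CPM (n = 17), with the lowest dog, OS9, at 856, the median at 1084 and the highest, OS10, at 1209, a narrow spread beside that of the other genes. M-MDSC followed with 300 ± 76.3 CPM, polymorphonuclear myeloid-derived suppressor cells (PMN-MDSC) with 199 ± 40.9, CD4+ monocytes with 138 ± 64.5, IFN signature monocytes with 132 ± 61.2 and CD4- monocytes with 123 ± 55.2. Below these the level dropped to 11.1 ± 11.8 CPM in eosinophils and 9.63 ± 6.05 in cDC2. By cells, a FCGR1A UMI was found in 3882 of 4882 neutrophils, 5716 of 7843 CD4- monocytes and 1029 of 1425 M-MDSC, at unlike depths. CD4- monocytes held 39.8% of all FCGR1A UMIs and neutrophils 26.2%. In NK cells there was no UMI in 368 cells, which again allows up to 0.815% of cells with a UMI, and pooled CD4- monocytes were at least 92.0-fold higher against the floor of 3 counts over all NK cells.

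The step from neutrophils to M-MDSC held in 17 of 17 dogs and the step from CD4- monocytes to eosinophils in 15 of 15 (each adjusted exact p = 0.00176). No pair in between passed 0.05. M-MDSC were above PMN-MDSC in 7 of 8 dogs, by 0.69 (SD 0.401) on the log2 scale (exact p = 0.0156, adjusted 0.0998), and PMN-MDSC above CD4+ monocytes in 7 of 8, by 0.67 (SD 0.709), and with 8 dogs neither pair could pass after adjustment. The 3 monocyte classes shared 16 dogs (adjusted exact p = 0.691 and 0.968). In PMN-MDSC the 2 healthy dogs with at least 10 cells, H3 and H7, had FCGR1A levels of 125 and 160 CPM, from 15 and 14 cells. The 6 dogs with osteosarcoma lay between 199 and 264 CPM, above both. With 2 healthy dogs no fit was made, and the share of all genes that separate the groups there was not counted. This is therefore not read as a difference between the groups.

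In CD4- monocytes the highest dog was further above the lowest, as a ratio, than in neutrophils. Of the 17 values, 10 lay between 64.3 and 99.9 CPM and the other 7 between 150 and 206, of which 3 were healthy dogs (H1, H5 and H6) and 4 had osteosarcoma (OS5, OS6, OS7 and OS10). The empty stretch was 0.35 of the range, and each side held dogs of both groups. In CD4+ monocytes the values ran from 55.3 in OS2 to 250 in OS10 with no comparable gap.

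**Figure D3:**
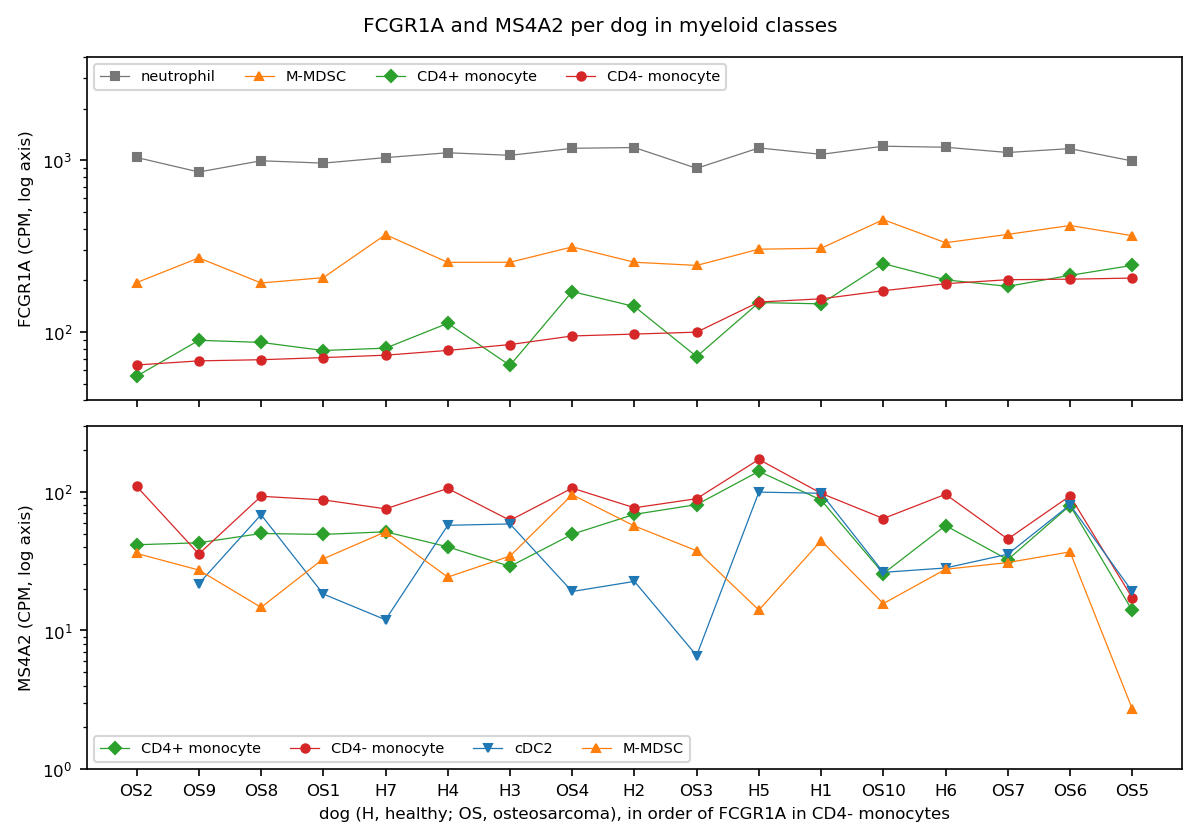
FCGR1A (top) and MS4A2 (bottom) in CPM on a log axis for each of 17 dogs, ordered by FCGR1A in CD4- monocytes, with a line and symbol for each class (classes with fewer than 10 cells in a dog are left out). FCGR1A in neutrophils stayed between 856 and 1209 CPM while CD4- monocytes ran from 64.3 to 206, and MS4A2 peaked in H5 (171 CPM in CD4- monocytes) and was lowest in OS5 (17.2).

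FCER1G, the shared gamma chain, was found in myeloid, dendritic and cytotoxic classes. Neutrophils had 1329 ± 541 CPM (n = 17), NK cells 764 ± 305 (n = 14), PMN-MDSC 647 ± 261 (n = 8), M-MDSC 580 ± 176, CD4- monocytes 538 ± 186, IFN signature monocytes 533 ± 181, cDC2 389 ± 158, CD4+ monocytes 373 ± 139, pre-DC 286 ± 104 and pDC 146 ± 69.9. Effector CD8 T cells had 208 ± 164. The clusters of the memory-list CD8 T cells had 276 ± 184 (led by PI3, n = 17) and 21.3 ± 30.5 (led by GZMK, n = 9). Naive CD8 T cells had 0.90 ± 1.41.

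Neutrophils were above NK cells in 14 of 14 dogs (adjusted exact p = 0.00176), and IFN signature monocytes above cDC2 in 14 of 15 (adjusted exact p = 0.00176). M-MDSC were above CD4- monocytes in 14 of 17 (adjusted exact p = 0.0331), and pDC above cycling T cells in 10 of 10 (adjusted exact p = 0.0204). The other 19 neighbour pairs did not pass 0.05, and 6 of them, NK cells and PMN-MDSC with 7 shared dogs among them (smallest exact p 0.0156), had too few dogs to pass.

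SYK was found in most myeloid classes and in B cells. It was highest in neutrophils at 1491 ± 281 CPM, then M-MDSC at 1096 ± 188, CD4+ monocytes at 769 ± 132 and B cells at 521 ± 62.8, where it serves the B cell receptor. IFN signature monocytes had 516 ± 76.6 CPM, CD4- monocytes 484 ± 83.4, eosinophils 454 ± 134 and NK cells 373 ± 138. PMN-MDSC, a myeloid class, were lower at 194 ± 49.5 (n = 8). Among dendritic classes, cDC2 had 290 ± 50.3, pDC 172 ± 54.7 and pre-DC 132 ± 47.7, and the 71 unclassified dendritic cells had a pooled 502 CPM. Effector CD8 T cells had 22.9 ± 21.7 and naive CD8 T cells 3.29 ± 2.07.

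The upper steps were the firm ones. Neutrophils were above M-MDSC in 14 of 17 dogs, M-MDSC above CD4+ monocytes in 16 of 17 and CD4+ monocytes above B cells in 16 of 17 (each adjusted exact p = 0.00176). The neutrophil clusters differed in SYK. That led by G0S2 had 1840 ± 343 CPM, the interferon-gene-led one 1451 ± 476 and the remaining one 1085 ± 238, near M-MDSC at 1096. IFN signature monocytes were above CD4- monocytes in 14 of 16 (adjusted exact p = 0.0316). From CD4- monocytes down, no neighbouring pair passed 0.05, and 5 of the 23 pairs had too few dogs to pass.

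Cytotoxic cells split on these 2 genes. NK cells kill antibody-coated targets through CD16 and its gamma chain, and ITAM signals in T cells usually run through ZAP70 in place of SYK. Across the 14 dogs with at least 10 NK cells, FCER1G in NK cells ran from 261 CPM in OS10 through a median of 751 to 1509 in OS1. SYK ran from 61.6 in OS7 through a median of 403 to 566 in H4, with OS10 the next lowest at 145. Thinned to 1500 UMIs, 65.8% of NK cells and 17.4% of effector CD8 T cells had a FCER1G UMI, and 38.6% and 2.69% a SYK UMI. Before thinning the shares were 91.0% and 30.3% for FCER1G and 74.5% and 7.02% for SYK, at medians of 5013.5 and 4377 UMIs per cell.

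In the 5 dogs with at least 25 cells of both classes, 4.09% of all genes tested were called between NK and effector CD8 T cells, and both genes tested, FCER1G and SYK, were called. FCER1G was at 1013, 876, 907, 667 and 637 CPM in the NK cells of H1, H3, H5, OS2 and OS6. The effector CD8 T cells of these dogs had 516, 189, 463, 230 and 123 CPM, so the NK value was the higher in each dog. The log2 fold change was 1.496 ± 0.118 (edgeR adjusted p = 2.35e-34). SYK differed more, by 3.59 ± 0.156 (edgeR adjusted p = 5.81e-113; 384 against 34.5 CPM), in 5 of 5 dogs.

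Effector CD8 T cells in turn exceeded naive CD8 T cells. In 17 dogs, where 24.9% of all genes tested were called, 2 of the 4 genes tested were called. FCER1G was higher in effector cells by 7.26 ± 0.171 on the log2 scale (edgeR adjusted p = 4.25e-28), in 17 of 17 dogs, and SYK by 2.98 ± 0.232 (edgeR adjusted p = 2.52e-13), in 15 of 17. The level of FCER1G in effector cells varied widely between dogs. It ran from 10.3 CPM in OS4, 13.4 in OS9 and 30.3 in OS10 through a median of 161 to 463 in H5 and 516 in H1.

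The effector cells fell mainly into a pair of clusters that differed in both genes. GZMA, KLRD1 and CCL5 were among the leading genes of each. The cluster led by TRPM3 had FCER1G at 291 ± 190 CPM, and the cluster led by CCL5 and GZMB at 90.6 ± 125, with the former higher in 16 of 17 dogs. SYK was 36.3 ± 32.4 and 7.99 ± 14.6, higher in the former in 15 of 17 dogs. These clusters were compared as a description, with no test.

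Within the monocytes, the CD4+ and CD4- classes differed in 3 of the 5 genes, beside 19.3% of all genes tested. In CD4+ monocytes FCER1G was lower by a log2 fold change of -0.77 ± 0.071 (edgeR adjusted p = 1.59e-12; 373 against 538 CPM), in 17 of 17 dogs. MS4A2 was lower by -0.83 ± 0.096 (edgeR adjusted p = 6.63e-10; 55.3 against 83.9 CPM), in 16 of 17. FCER1A was called as well, at a pooled 31.6-fold higher level in CD4- monocytes (95% counting interval 10.7 to 154), from 280 UMIs against 3 in 3582 CD4+ monocytes. The 280 UMIs lay in 159 of the 7843 CD4- monocytes, of which 58 held all 3 chains. Of all 7843, 2817 held a MS4A2 UMI and 7628 a FCER1G UMI. By cluster FCER1A was 7.77 CPM in the CD4- cluster led by MT2A and 0.12 to 1.64 in the other CD4- clusters. SYK was higher in CD4+ monocytes in 17 of 17 dogs (769 against 484 CPM), and its fitted log2 fold change of 0.43 ± 0.056 was under the fold threshold. FCGR1A differed by -0.08 ± 0.069 (edgeR adjusted p = 0.345), higher in CD4+ monocytes in 11 of 17 dogs by CPM, and it was called at -0.93 when doublets were kept. At a clustering resolution of 0.5, 1 of the 5 genes was called in this pair.

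M-MDSC differed from CD4+ monocytes in all 4 genes tested, beside 18.8% of all genes tested. In 16 dogs FCGR1A was higher in M-MDSC by 1.25 ± 0.098 (edgeR adjusted p = 2.96e-15; 299 against 136 CPM), FCER1G by 0.68 ± 0.093 (edgeR adjusted p = 2.62e-08) and SYK by 0.59 ± 0.070 (edgeR adjusted p = 8.8e-10), each in 16 of 16 dogs. The fold change of SYK stood just past the threshold of 0.58, and its call was lost in healthy dogs alone and under 4 other settings. The FCER1G call was lost at resolution 0.5 (0.47). MS4A2 was lower by a log2 fold change of -0.73 ± 0.150 (edgeR adjusted p = 8.88e-05; 30.5 against 55.7 CPM), in 15 of 16, and its call was lost in healthy dogs alone (-0.70) and at resolution 1.5 (-0.55). When the cells were clustered without correction across dogs, 2 of the 4 genes were called, and the fold change of MS4A2 turned to 0.02. By cluster FCER1G was 237 CPM in the CD4+ cluster led by TCF7L2 and 527 in that led by PLBD1. M-MDSC of the 16 dogs had 565 CPM.

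IFN signature monocytes and CD4- monocytes were not called apart on FCER1G, FCGR1A, MS4A2 and SYK, whose fitted differences lay between -0.08 and 0.10 on the log2 scale. Of the 5 genes, 1 was called beside 1.62% of all genes tested: FCER1A, from 242 UMIs in CD4- monocytes against 3 in IFN signature monocytes of 12 dogs, a pooled ratio of 12.6 (95% counting interval 4.26 to 61.5). This call was lost under DESeq2, under edgeR's own expression filter and in healthy dogs alone.

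Against neutrophils, all monocytes together differed in 4 of the 5 genes in 17 dogs, beside 52.4% of all genes tested and a median log2 fold change of 0.37 over all genes. FCGR1A was lower in monocytes by -3.01 ± 0.134 on the log2 scale, FCER1G by -1.28 ± 0.097 and SYK by -1.27 ± 0.084, and MS4A2 was higher by 3.47 ± 0.308, each in 17 of 17 dogs (edgeR adjusted p between 6.85e-19 and 1.65e-11). Neutrophils had a median of 1720 UMIs per cell and monocytes several times more, and the part of depth in these differences was not tested.

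The level of FCER1G moved together in several classes of the same dog. In all, 8 relations across dogs were computed, giving 24 values of each coefficient when all dogs, healthy dogs and dogs with osteosarcoma were taken in turn, and p-values were adjusted over these 24. FCER1G in CD4- monocytes was related to FCER1G in cDC2 (Pearson r = 0.94, Spearman rho = 0.94, 16 dogs; each permutation p = 1e-05, the smallest that 100000 draws can give, adjusted 0.00024). It was related to FCER1G in neutrophils as well (r = 0.88, rho = 0.86, 17 dogs; adjusted permutation p = 0.00036 and 0.0006).

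Without the 2 dogs farthest from the median, r was 0.91 for cDC2 and 0.86 for neutrophils. Within healthy dogs r was 0.94 and 0.96, and within dogs with osteosarcoma 0.95 and 0.83. H6 was the lowest dog in neutrophils (558 CPM), CD4- monocytes (183) and cDC2 (126), while OS4 and OS8 were at the top in CD4- monocytes (853 and 803) and cDC2. All classes of a dog come from the same library, and the labels record no batch.

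**Figure D4:**
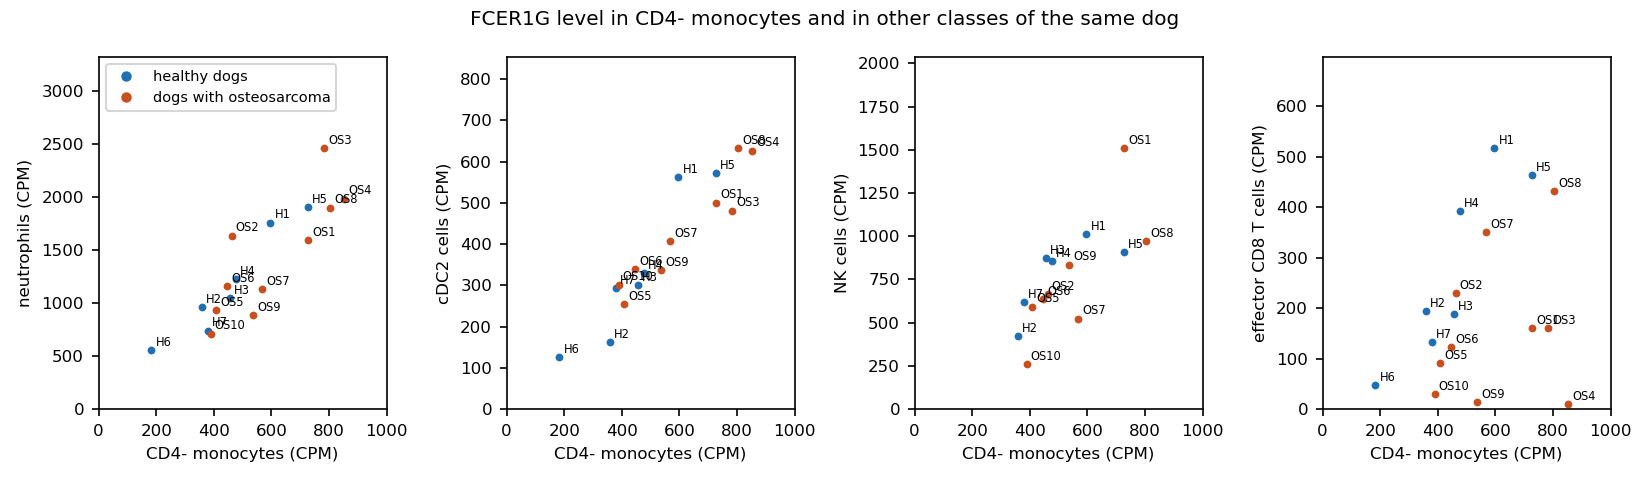
FCER1G in CPM in CD4- monocytes (x axis) against neutrophils, cDC2, NK cells and effector CD8 T cells of the same dog (y axes), with 1 labelled point for each dog (blue, healthy; orange, osteosarcoma). Points rise together for neutrophils (r = 0.88), cDC2 (r = 0.94) and NK cells (r = 0.74), and scatter for effector CD8 T cells (r = 0.32), where OS4, OS9 and OS10 lie near the axis.

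The relation extended to NK cells (r = 0.74, rho = 0.80, 14 dogs; adjusted permutation p = 0.00627 and 0.00412; r = 0.65 without 2 dogs) and to eosinophils (r = 0.71, rho = 0.82, 15 dogs; adjusted permutation p = 0.00786 and 0.00238; r = 0.78 without 2 dogs). For NK cells r was 0.75 and rho 0.89 within 6 healthy dogs (adjusted exact permutation p = 0.138 and 0.0666). Within 8 dogs with osteosarcoma r was 0.78 and rho 0.74 (adjusted exact permutation p = 0.0368 and 0.0846), with r = 0.51 without OS8 and OS1, so the NK relation did not hold firmly within the groups. Within dogs with osteosarcoma the eosinophil relation was weaker (r = 0.55, exact permutation p = 0.155, n = 8). For effector CD8 T cells r was 0.32 and rho 0.28 over 17 dogs (permutation p = 0.208 and 0.277). Within the 7 healthy dogs r was 0.89 and rho 0.86 (adjusted exact permutation p = 0.0114 and 0.0519), and r was 0.25 within the 10 dogs with osteosarcoma (permutation p = 0.474), a difference that was not tested.

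Depth was set beside this level. FCER1G in CD4- monocytes against the median UMIs per CD4- monocyte gave r = 0.43 and rho = 0.40 over 17 dogs (permutation p = 0.0883 and 0.114). Within dogs with osteosarcoma it gave r = 0.83 (adjusted permutation p = 0.00404) and within healthy dogs r = 0.10 (exact permutation p = 0.844, n = 7), and the part of depth in the relation was not tested. For SYK in CD4- monocytes and neutrophils r was -0.07 and rho -0.06 over 17 dogs (permutation p = 0.777 and 0.818). MS4A2 in CD4- monocytes and cDC2 gave r = 0.55 and rho = 0.38 over 16 dogs (adjusted permutation p = 0.046 and 0.214). It fell to r = 0.28 without H5 and OS5, so it rests on those dogs.

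Other genes of the pathway were read from a list of 57 Fc receptors, ITAM adaptors, Src kinases, scaffold proteins, effectors and inhibitors, of which 49 were among the genes counted under their symbols. FCGR3A, which encodes CD16, FCGR2B, FCAR, TYROBP and CD247 were among the 8 not analysed here. Between NK and effector CD8 T cells, 5 of the 39 list genes tested were higher in NK cells and 0 lower, beside 4.09% of all genes called: LAT2, a scaffold, at 3.07 on the log2 scale, LYN, a kinase that phosphorylates ITAMs, at 2.14, VAV3, an exchange factor, at 1.52, PLCG2, a phospholipase, at 1.09, and DOK2, an inhibitory adaptor, at 0.62. The list's median was 0.03 and that of all genes -0.12.

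Between effector and naive CD8 T cells, 19 of 48 list genes were higher and 3 lower, beside 24.9% of all genes called (list median 0.24, all genes 0.04). FGR and LYN, both Src kinases, were higher by 7.04 and 2.71, PLCG2 by 4.46 and INPP5D, an inhibitory phosphatase, by 2.21. ZAP70, the T cell relative of SYK, was higher by 0.89. BLNK, the B cell linker, was lower by -4.24, FCMR, the IgM receptor, by -2.19 and FCGRT, the IgG recycling receptor, by -1.16.

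Between pDC and cDC2, 12 of 42 list genes were higher and 14 lower, beside 34.2% of all genes called (list median -0.06, all genes -0.08). FCRLA, an intracellular Fc receptor-like protein, was higher in pDC by 8.22 and BLNK by 7.27, whereas CARD9, which links SYK to NF-kappaB, was lower by -5.93, LAT2 by -3.23 and GAB2 by -1.60. Pre-DC against pDC gave 12 higher and 13 lower of 39, beside 24.7% of all genes called, with CARD9 up by 4.51 and BLNK down by -4.19.

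Between CD4+ and CD4- monocytes, 5 of 46 list genes were higher and 8 lower, beside 19.3% of all genes called. The called scaffold proteins and effectors of the list went both ways. GAB2, PRKCB, VAV1 and LCP2 were higher in CD4+ monocytes by 0.67, 0.63, 0.63 and 0.59, while CARD9, BTK, NFATC2 and BLNK were lower by -0.81, -0.72, -0.70 and -0.64. Among other genes, UBASH3B, a phosphatase that restrains SYK, was higher by 0.60. FCGRT was lower by -2.11 and PTPN6, an inhibitory phosphatase, by -0.68. M-MDSC against CD4+ monocytes gave 3 higher and 4 lower of 42, a share near the 18.8% of all genes called, with FCER2, the low-affinity IgE receptor, higher by 0.84, and NFATC2, a transcription factor, and FCGRT lower by -4.69 and -2.34. In IFN signature monocytes TRIM21, a cytosolic antibody receptor, was the only list gene of 45 called against CD4- monocytes, higher by 0.85, beside 1.62% of all genes. All monocytes against neutrophils gave 12 higher and 15 lower of 48, beside 52.4% of all genes called, and basophil-list cells against eosinophils 1 higher and 5 lower of 34, beside 15%. Such shares near those of all genes say nothing particular about the list.

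The genes whose class means were most like those of each gene, over 24 classes on the log2 scale, are given as a description. For FCER1G they were ENSCAFG00000016301, RAB31 and FGL2 (r between 0.90 and 0.92), and for FCGR1A TAL1, ENSCAFG00000029953 and ENSCAFG00000014564 (each r = 0.99). For SYK they were TPD52, SKAP2 and LRRK2 (r = 0.93, 0.92 and 0.87), for FCER1A KLHL32, PPM1J and RXFP1 (r = 0.93, 0.92 and 0.92), and for MS4A2 ALDH3B1, ENSCAFG00000031869 and BPI (r = 0.98, 0.96 and 0.95). Among the genes themselves the nearest were FCGR1A with MS4A2 (r = 0.80) and FCER1G with FCGR1A (r = 0.68), and FCER1A was near none of them (r between -0.08 and 0.32).

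The last comparison asked whether osteosarcoma moved any of these genes within a class. Dogs with osteosarcoma and healthy dogs were compared in 17 classes, of which NK cells, pDC, pre-DC and basophil-list cells were fitted with at least 10 cells per dog, a minimum set after seeing the data, and the others with 25. The genes had 0 calls in every class, where between 1 (basophil-list and double-negative T cells) and 5 of them could be tested. Beside this, 0% of all genes tested were called in 13 classes, 0.0117% in eosinophils, 0.417% in basophil-list cells, 0.0226% in pDC and 0.0117% in pre-DC, while 311 to 886 genes per class had an unadjusted p below 0.05. DESeq2 called none of the 5 genes either, and the values of the groups overlapped for each gene in each of these classes.

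The fitted fold changes of FCER1G were above 0 in monocytes, neutrophils, eosinophils and cDC2, and none passed the test. In CD4- monocytes healthy dogs ran from 183 through a median of 456 to 726 CPM and dogs with osteosarcoma from 389 through 552 to 853 (means 454 ± 175 and 598 ± 178). The log2 fold change was 0.45 ± 0.227 (edgeR adjusted p = 0.762). It was 0.58 ± 0.269 in IFN signature monocytes (edgeR adjusted p = 1.0), 0.74 ± 0.336 in eosinophils (edgeR adjusted p = 0.817), 0.41 ± 0.259 in CD4+ monocytes, 0.35 ± 0.212 in M-MDSC, 0.31 ± 0.198 in cDC2 and 0.30 ± 0.241 in neutrophils. In effector CD8 T cells it was -0.82 ± 0.574 (276 ± 180 against 160 ± 142 CPM; edgeR adjusted p = 1.0). The groups overlapped widely in all of these.

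SYK in effector CD8 T cells had the smallest unadjusted p of the levels described, 0.00422 by edgeR (adjusted p = 0.961). Healthy dogs ran from 4.28 through a median of 28.4 to 80.6 CPM and dogs with osteosarcoma from 2.90 through 10.6 to 29.3, with a log2 fold change of -1.59 ± 0.496. In neutrophils SYK was 1327 ± 171 CPM in healthy dogs and 1605 ± 292 in dogs with osteosarcoma (0.29 ± 0.152, edgeR adjusted p = 1.0), and in NK cells 429 ± 75.2 against 331 ± 163 (-0.36 ± 0.242, edgeR adjusted p = 1.0). In B cells it was 556 ± 50.8 against 497 ± 60.7.

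FCGR1A was within a log2 fold change of -0.10 to 0.24 in the 6 fits with a mean of at least 20 CPM. MS4A2 lay between -0.52 and -0.19 in monocytes and cDC2, with 97.9 ± 35.8 CPM in CD4- monocytes of healthy dogs against 74.2 ± 31.7 in dogs with osteosarcoma (-0.35 ± 0.290, edgeR adjusted p = 0.832). FCER1A was 498 ± 44.4 against 441 ± 86.5 CPM in pDC (-0.19 ± 0.176), 298 ± 169 against 218 ± 120 in pre-DC (-0.43 ± 0.316; -0.79 without OS5 and -0.0002 without H3), 136 ± 68.7 against 142 ± 126 in cDC2 (0.17 ± 0.423) and 31.1 ± 23.3 against 36.8 ± 34.1 in eosinophils (0.73 ± 0.504). Without OS5 the cDC2 value was -0.61. In eosinophils the value ran from 0.31 to 1.00 with 1 dog left out. These values do not show that the groups are alike, since the standard errors leave room for changes of this size.

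**Figure D5:**
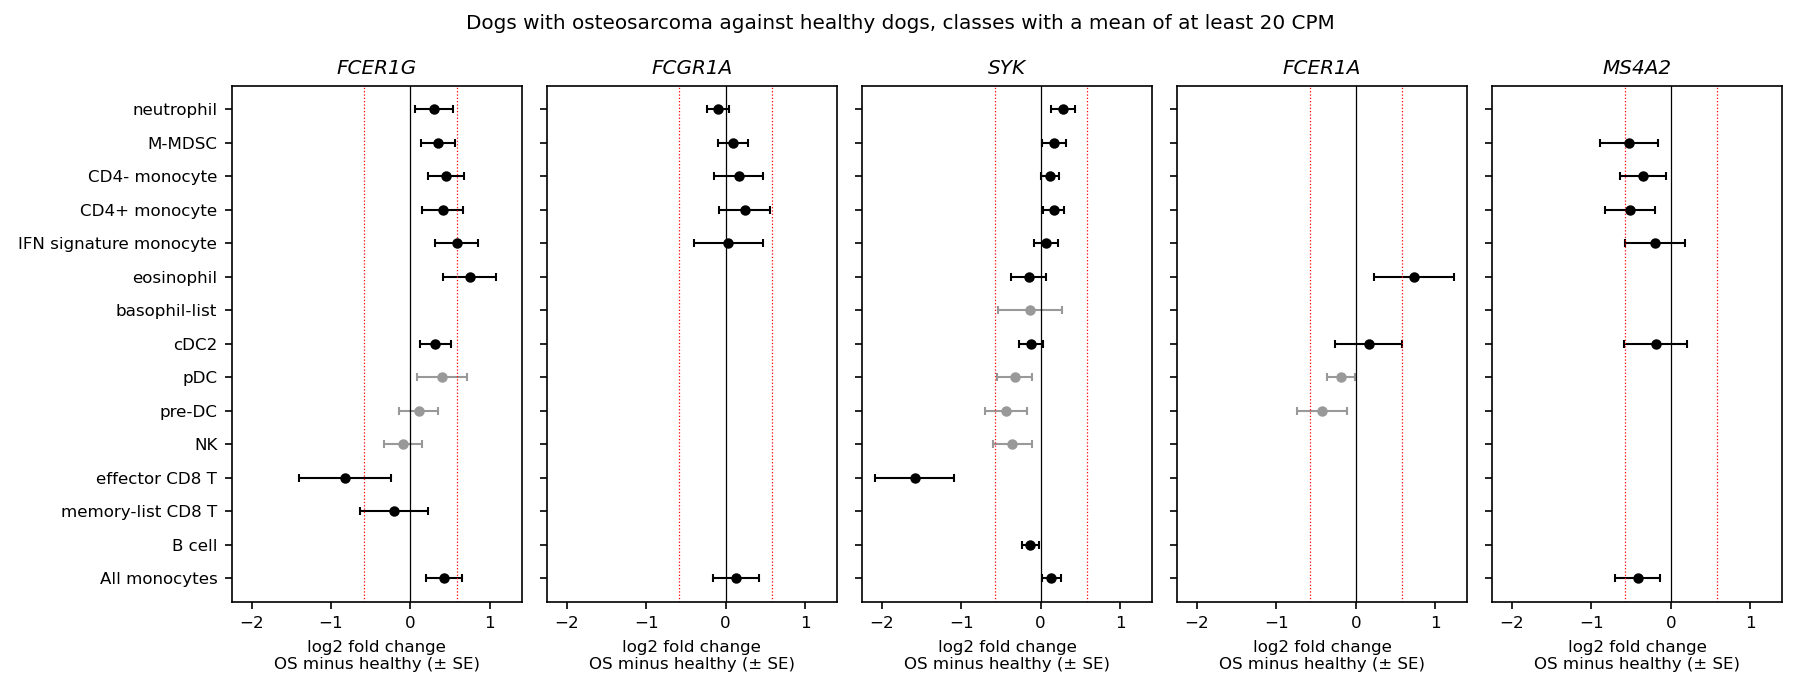
Log2 fold change of dogs with osteosarcoma against healthy dogs (point) ± SE (bar) by edgeR in each class where a gene had a mean of at least 20 CPM, with dotted lines at the fold threshold of ±0.58 (black, at least 25 cells per dog; grey, at least 10). The value farthest from 0 is SYK in effector CD8 T cells at -1.59 ± 0.496, and no point was called.

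The list of 49 pathway genes gave 0 calls in both directions in all 17 classes. The largest fold change among list genes named by the rule was that of VAV3 in double-negative T cells, 1.54 ± 0.344 (edgeR unadjusted p = 0.0001, adjusted p = 0.35).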

How the data were processed

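The authors deposited 1 matrix of raw UMI counts per dog, made with Cell Ranger 7.0.0 on CanFam3.1 and an Ensembl annotation filtered to protein-coding, lincRNA, antisense and immunoglobulin genes. They ran the alignment both including and excluding introns, and the sources used here do not say which run the matrices hold. The members and gene lists were chosen with earlier results of these data known.

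Of 93013 barcodes, 84345 passed the cell filter (between 200 and 4500 genes, between 500 and 20000 UMIs, mitochondrial share under 10%). Scrublet scores in scanpy 1.11.5 (Python 3.11.15) were used to remove the number of doublets expected for each library's size (3938 cells). Cells were clustered in 2 levels, with 3532 platelet-like and erythrocyte-like cells removed after the first and 76875 left (2000 variable genes, 30 principal components, correction across dogs by a Harmony-type method, 20 neighbours, resolution 1.0). The 5 genes, the pathway list and ribosomal and mitochondrial genes, 137 in all, were held out of clustering and naming. The 85 clusters gave 27 named classes, which held 72642 cells together with the CPA3-high cluster, and 2594 cells in mixed and 1639 in other unnamed clusters were left out of class comparisons. Naming thresholds were chosen with the clusters in view.

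Counts were summed per dog and class. Sums were fitted with edgeR 4.0.16 (R 4.3.3; TMM, quasi-likelihood test) on genes with at least 10 counts in dogs with at least 25 cells, or 10 for rare classes, with Benjamini-Hochberg adjustment over all genes fitted. Fits were checked on simulated data with 3-fold changes, where false calls numbered 0 to 7 in each comparison, except 28 of 8347 genes between basophil-list cells and eosinophils. In that pair the genes raised 3-fold, at 20 counts or more, had a median fitted log2 fold change of 1.203. It was 1.491 to 1.693 in the other comparisons, so fold changes of this pair were fitted too low. Of the changed genes, 10.7% were recovered in basophil-list cells between disease groups, against 36.8% to 70.5% in the other classes. The SE given with an edgeR fold change is its absolute value divided by the square root of the test's F statistic. It is not a fitted standard error and need not match the p-value. DESeq2 1.42.0 was an alternative. Each library is a separate dog, so dogs are the units tested, and the exact and permutation p-values rest on the dogs' own values. The edgeR test takes the spread of a gene in part from all genes, so its p-values do not measure that gene's spread between dogs alone. Its very small values for NK against effector CD8 T cells, from 5 dogs, are to be read with this limit. The share of cells with a UMI was also taken after thinning each cell to 1500 UMIs. Fold changes between disease groups are given for genes with a mean of at least 20 CPM. Of the pathway list, called genes are described by their number and the named examples, and otherwise the 3 with the largest fold change at 50 CPM or more. Likeness of patterns was ranked among genes with at least 50 CPM in 1 class. No sequences or genome positions were used here.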

Additional observations from a re-analysis of the deposited data

Results flagged for a closer look

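Values that stood apart from the rest of their group by Dixon's test at the 95% level are given below, for groups of 4 to 10 dogs. Of 88 groups tested 6 gave such a value, and chance gives about 1 in 20.

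MS4A2, the beta chain of the IgE receptor, stood apart in H5 in both CD4- monocytes and IFN signature monocytes. H5 had 171 CPM in 229 CD4- monocytes, with the next healthy dog at 106, and 215 CPM in 13 IFN signature monocytes, with the next at 111. In M-MDSC, OS4 had 95.3 CPM of MS4A2 in 21 cells, where the next dog with osteosarcoma had 37.6.

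FCER1A, the IgE-binding chain, stood apart in the dendritic classes. H3 had 587 CPM in 29 pre-DC against 285 in the next healthy dog, and OS5 had 356 CPM in 82 cDC2 against 160 in the next dog with osteosarcoma. For FCGR1A, OS10 had 264 CPM in 17 PMN-MDSC, with the next of 6 dogs at 213.

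H5 and OS4 were also the dogs with the most cells of the CPA3-high cluster, 20 and 15 of its 52. The part of such cells in the MS4A2 levels of the monocyte classes was not tested. CPA3, among the leading genes of that cluster, had 8 UMIs in all 7843 CD4- monocytes.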

How the results depend on the processing

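The absence of calls for the 5 genes between dogs with osteosarcoma and healthy dogs held in 163 fits under other settings and in 247 that left out 1 dog (range 0 to 0). The dogs left out in turn also in classes with fewer than 5 dogs in a group, and in NK cells against effector CD8 T cells, were an alternative chosen after seeing the data, as was the relation with depth. In the latter pair 2 genes were called whichever dog was left out. The number of neighbouring classes that differed stayed within 1.5 times under both other settings for each gene, though with at least 25 cells per dog 17 pairs were left of 23 for each, and the first class became cDC2 for FCER1A, since pDC had too few such dogs, and CD4- in place of IFN signature monocytes for MS4A2.

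Among pairs of classes, 75 of 88 counts of called genes among the 5 stayed within 1.5 times. For basophil-list cells and eosinophils, 1 was called under DESeq2, 1 in healthy dogs only, 1 in dogs with osteosarcoma only and 0 with filterByExpr, edgeR's own filter, which dropped FCER1G and FCER1A. For IFN signature and CD4- monocytes, 0 were called under DESeq2, which gave FCER1A no adjusted p, with filterByExpr and in healthy dogs only. For M-MDSC and CD4+ monocytes, 2 were called in healthy dogs only, at resolution 1.5 and without correction across dogs. With filterByExpr 1 was called between effector and naive CD8 T cells (SYK was dropped), with doublets kept 1 between pre-DC and pDC, and at resolution 0.5, 1 between CD4+ and CD4- monocytes. The cause was not tested where no dropped gene or sample number is named.

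Some small fold changes turned. For FCER1G between IFN signature and CD4- monocytes the value was 0.0355 under DESeq2, 0.0316 with RLE factors, 0.0194 with filterByExpr and 0.0215 in dogs with osteosarcoma. For FCGR1A between CD4+ and CD4- monocytes it was 0.0156 in dogs with osteosarcoma and 0.0364 at resolution 0.5, and for MS4A2 between M-MDSC and CD4+ monocytes 0.0243 without correction across dogs. Between disease groups, FCGR1A in IFN signature monocytes came to -0.0119 under DESeq2 and -0.0083 at resolution 0.5 and ran from -0.21 to 0.36 with 1 dog left out. MS4A2 there was 0.22 with doublets kept, FCER1G was -0.0153 in cDC2 at resolution 0.5, -0.0837 in pre-DC with doublets kept and 0.27 in memory-list CD8 T cells without correction.

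With 1 dog left out, the range between disease groups crossed 0 for FCER1A in cDC2 (-0.61, without OS5, to 0.51), MS4A2 in cDC2 (-0.65 to 0.13), SYK in cDC2 (-0.17 to 0.0131), FCER1G in pre-DC (-0.0878 to 0.35), FCER1G in NK cells (-0.30 to 0.0142, without OS10), FCGR1A in M-MDSC (-0.0287, without OS10, to 0.17) and SYK in basophil-list cells (-0.29 to 0.0431, without H1).

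Same-numbered dogs share only a number (r of their deviations -0.25 to 0.50). With the replicate block none of the 5 genes was called, and the fold change was -0.017 for FCGR1A in M-MDSC, -0.0932 for SYK in IFN signature monocytes, -0.79 for FCER1A and 1.47 for MS4A2 in cDC2, 0.17 for FCER1A and -0.0175 for FCER1G in pre-DC and 0.12 for FCER1G in NK cells. It raised the genes called in neutrophils from 0 to 14.

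Counts over all genes moved more. Between disease groups they reached 17 in cDC2, 16 in NK cells and 12 in double-negative T cells and pDC on genes with at least 1 count, and the 17 of basophil-list cells came to 0 under DESeq2. Between classes they fell from 437 to 264 for NK against effector CD8 T cells under DESeq2, from 2325 to 1394 for M-MDSC against CD4+ monocytes without correction and from 1286 to 518 for basophil-list cells against eosinophils in dogs with osteosarcoma. With filterByExpr they fell from 3272 to 2082 (effector against naive), 3632 to 2023 (pDC against cDC2) and 2403 to 1513 (pre-DC against pDC). Not fitted, with fewer than 3 dogs a group (or a pair) holding enough cells, were M-MDSC and IFN signature monocytes between disease groups and IFN signature against CD4- monocytes without correction, memory-list CD8 T cells at resolution 0.5, and NK against effector CD8 T cells in dogs with osteosarcoma. Few cells per dog limit NK cells (368 in all), pDC and pre-DC.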

Other observations

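Some small clusters outside the classes compared in the report held the chains of the IgE receptor. A cluster of 104 cells from 17 dogs, led by PRLR and with IL17RB and IL1RL1 among its leading genes, the latter a receptor subunit for interleukin 33, had FCER1A UMIs in 11 cells, MS4A2 UMIs in 16 and all 3 chains in 8, the last from 3 dogs. Its pooled levels were 89.4 CPM of FCER1A, 125 of MS4A2, 73.4 of FCER1G and 32.0 of SYK. A cluster of 53 cells from 16 dogs, led by PKIB and with CD1C and MRC1 among its leading genes, had FCER1A UMIs in 20 cells and MS4A2 UMIs in 7, with pooled levels of 268 and 28.9 CPM, and 5 cells held all 3 chains. The 45 cells of the CD34+ unclassified class had FCER1A UMIs in 9 cells, MS4A2 UMIs in 9 and all 3 chains in 2, with pooled levels of 101 and 65.0 CPM. These clusters were singled out after their values had been seen, and no test was made.

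FCGR1A was high in another unnamed cluster. This cluster, of 132 cells, was led by ZFPM2 and FNDC3B, at a median of 1180 UMIs, and had 692 CPM of FCGR1A, 1898 of SYK and 545 of FCER1G, with 1 cell with a FCER1A UMI and 0 with MS4A2.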
